A study of Mus musculus with 6 samples.

Results

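The genes of cholesterol synthesis and its control by the transcription factor SREBP-2 were followed step by step in 3 kidney RNA libraries labelled Db and 3 labelled Db + Ato10. The list holds 30 genes with a known place in the pathway, and it was chosen with earlier results of these data known. They are the enzymes that lead from acetyl-CoA to cholesterol and the proteins that hold SREBP-2 back or escort it. Others move sterol within the cell or remove lipoprotein receptors. All 30 were in the deposited table of 17684 genes, and all 30 passed the filter on low counts (at least 10 counts in at least 3 libraries), as did 13679 genes in all. The lowest count of a member in a library was 107.

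Both groups were db/db mice, which lack a working leptin receptor and become obese and diabetic, of the strain given as C57 BLKS/L in the sample labels and as C57BLKS/J in the paper, aged 50 weeks and, by the study's methods, all male. The Db group received normal saline for 40 weeks. The Db + Ato10 group received atorvastatin at 10 mg/kg for 40 weeks by oral gavage, dosed on a run of days in each week. The records name atorvastatin for all 6 samples in a shared protocol field and separate saline from atorvastatin in the treatment field, which was used here. The labels do not say that each library came from a separate animal, so p-values measure the spread between these samples.

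Cholesterol is built in the cell from acetyl-CoA through mevalonate, isoprenoid diphosphates, squalene and lanosterol, and statins block the step that forms mevalonate. When sterol in the membrane of the endoplasmic reticulum runs low, Scap carries the precursor of SREBP-2 to the Golgi, where it is cut and freed to switch on nearly every gene of the pathway, and when sterol is plentiful the Insig proteins keep the complex in place. Statins are known to raise the RNA of these genes in liver and in cultured cells through this loop, while the kidney makes part of its own cholesterol, much of it in the tubule.

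Sequencing gave 13134930, 11381678 and 12426051 counts in Db replicates 1, 2 and 3 and 14578023, 14667909 and 13133241 in Db + Ato10 replicates 1, 2 and 3. Values of a gene in a library are given as CPM, counts scaled to a common library size after TMM scaling of the libraries to each other, or as TPM, the deposited value that is also scaled to transcript length and is used wherever the levels of different genes are compared. A count of 3 in a library corresponds to between 0.198 and 0.260 CPM, a limit that covers counting error only, and every member lay far above it.

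Some libraries stood apart before any member was looked at. On the first principal component of all tested genes, which held 71.1% of the variance, Db replicates 1, 2 and 3 lay at −55.4, −26.9 and −52.0 and Db + Ato10 replicates 1, 2 and 3 at 107, 46.1 and −18.8. Db + Ato10 replicates 1 and 2 were therefore far from the rest, while Db + Ato10 replicate 3 lay next to the Db libraries. Db replicate 1 held 2 counts over the Y-linked genes Ddx3y, Uty, Kdm5d and Eif2s3y, where Db replicates 2 and 3 held 1520 and 1419 and Db + Ato10 replicates 1, 2 and 3 held 2049, 2116 and 1508. A kidney of a male mouse would carry such counts, so this library went against the stated sex; without it 20 of the 30 genes were lower, and their median log2 fold change was −0.076.

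None of the 30 genes met the criteria for a differentially expressed gene (DEG; fold change over 1.5 and adjusted p under 0.05) with edgeR's quasi-likelihood test, and the same test called 0 of all 13679 genes (0%). At an unadjusted p under 0.05, 1 of the 30 was counted, the higher Npc2, against 11.2% of all tested genes that were higher and 5.71% that were lower at that level. Over all tested genes 2314 passed that level with edgeR. DESeq2 on the same counts called 0 of the 30 and 884 (6.46%) of all tested genes. Adjusted p-values from edgeR ran from 0.283 to 0.988 over the 30 genes. With 3 libraries against 3 an exact permutation test of a single gene (2-sided) cannot give a p below 0.1, and these p-values do not show that the genes were equal in the groups.

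Sizes of the differences were modest beside those of other genes. Of the 30 genes, 17 were lower and 13 higher in the Db + Ato10 group, and 50.6% of all tested genes were lower. The median log2 fold change was −0.10 over the 30 genes and −0.0063 over all tested genes, and for the 30 it turned to 0.060 when Db replicate 3 was left out and to 0.043 when Db + Ato10 replicate 1 was. Only Cyp51 and Npc2 differed by more than 1.5-fold on average, 2 of 30 against 25.2% of all tested genes. In no member did every Db + Ato10 library exceed every Db library, a pattern that 12% of all tested genes showed. Scap and Insig2 had the opposite separation, every Db + Ato10 library below every Db library, which 11.3% of all tested genes showed.

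**Figure D1:**
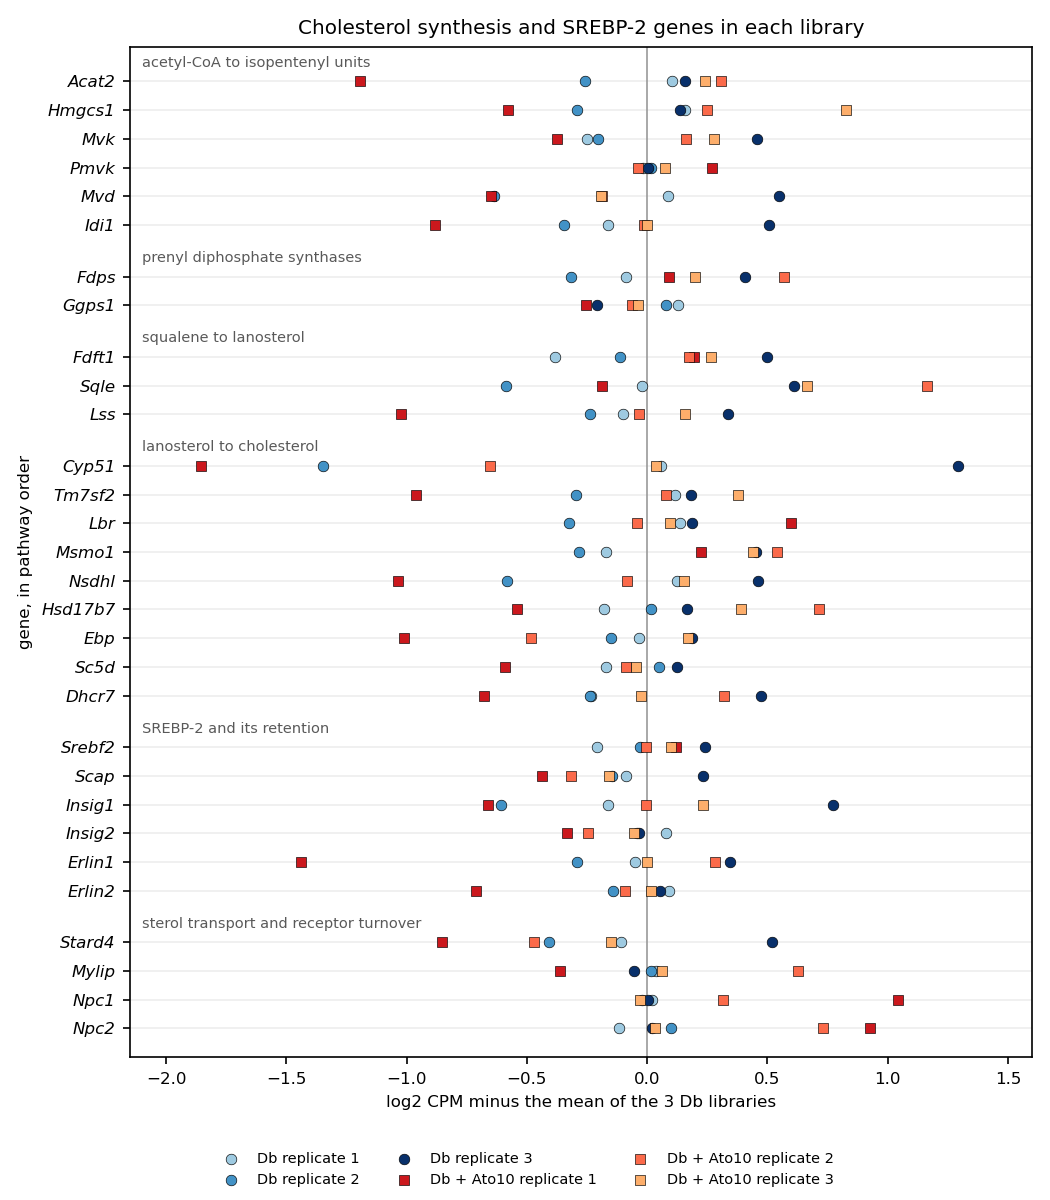
Each point is a library, placed by its log2 CPM minus the mean of the 3 Db libraries (horizontal axis) for each of the 30 genes in pathway order (vertical axis). Circles are Db and squares Db + Ato10; Db + Ato10 replicate 1 is the lowest of the 6 libraries in 21 genes, and Db replicate 3 is the highest in 15.

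The genes differed more clearly between individual libraries than between the groups. Db + Ato10 replicate 1 was the lowest of the 6 libraries for 21 of the 30 genes (70.0%), beside 31.4% of all tested genes. Db replicate 3 was the highest for 15 of the 30 genes (50.0%), beside 14.4% of all tested genes. Among the Db libraries alone, replicate 3 was the highest for 22 of 30 genes (73.3%, against 29.3% of all tested genes) and replicate 2 the lowest for 21 of 30 (70.0%, against 32.6%). Thus the Db libraries already ran from low to high along most of the pathway. Relative to the mean of the Db libraries, the median log2 deviation of the 30 genes was −0.043, −0.24 and 0.24 in Db replicates 1, 2 and 3 and −0.56, −0.0044 and 0.085 in Db + Ato10 replicates 1, 2 and 3. In Db + Ato10 replicates 2 and 3 the genes were on the whole near the Db level, and in its replicate 1 they were lower on the whole. The ratio of the highest to the lowest library within a group had a median of 1.41 over the 30 genes in Db and 1.86 in Db + Ato10, and 1.30 and 1.53 over all tested genes.

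By TPM, the most abundant of the genes were Acat2, Ebp, Hmgcs1 and Npc2, with means over the 6 libraries of 85.9, 82.2, 80.3 and 79.1 TPM. Their order was not the same in the groups, with means of 90.3, 94.8, 74.9 and 65.0 TPM in Db and 81.5, 69.6, 85.7 and 93.3 TPM in Db + Ato10. Nsdhl and Erlin2 followed with 59.1 and 56.1 TPM. The least abundant were Lss and Hsd17b7 with 6.52 and 7.78 TPM. Enzymes of 1 pathway were thus present at RNA levels that differed by more than an order of magnitude. The TPM of the 30 genes summed to 1014, 863 and 1255 in Db replicates 1, 2 and 3 and to 693, 1121 and 1086 in Db + Ato10 replicates 1, 2 and 3, so the lowest sum was in Db + Ato10 replicate 1 and the highest in Db replicate 3.

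The opening steps, from acetyl-CoA to the isopentenyl units, had 3 genes lower and 3 higher in the Db + Ato10 group, and none passed the test. Acat2, the cytosolic thiolase that joins acetyl-CoA into acetoacetyl-CoA, had 110.4, 85.9 and 115 CPM in Db replicates 1, 2 and 3 and 44.8, 127 and 121 CPM in Db + Ato10 replicates 1, 2 and 3. Db + Ato10 replicate 1 was below every other library, and the other 2 treated libraries were above every Db library. Its log2 fold change was −0.085 (SE 0.387, edgeR adjusted p = 0.915) and became 0.27 when Db + Ato10 replicate 1 was left out. The estimated counts of Acat2 were not whole numbers, as happens when reads are shared with a similar gene. Acat3, a close copy of Acat2, had 39.3, 50.1 and 37.7 CPM in the Db and 37.6, 184 and 76.1 CPM in the Db + Ato10 libraries, so the division of reads between the pair is uncertain.

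Hmgcs1, the synthase that makes the substrate of the step that statins block and a classic SREBP-2 target, had 166, 122 and 164 CPM in Db replicates 1, 2 and 3 and 99.7, 177 and 265 CPM in Db + Ato10 replicates 1, 2 and 3. The treated libraries held both the lowest and the highest value of the 6, and the spread within that group (181 ± 82.6 CPM, SD, n = 3, against 151 ± 25.1 CPM in Db) exceeded the difference between the means. Its log2 fold change was 0.26 (SE 0.353, edgeR adjusted p = 0.696). Leaving out Db + Ato10 replicate 3, the library with the highest value, turned it to −0.12, and leaving out replicate 1 of that group gave 0.56.

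Mvk and Pmvk add phosphates to mevalonate in turn. Mvk had 10.0, 10.3 and 16.4 CPM in the Db and 9.16, 13.4 and 14.5 CPM in the Db + Ato10 libraries, with a log2 fold change of 0.011 (SE 0.286) that changed sign in 7 of the alternative settings. Pmvk was the steadiest gene of the segment, at 14.2, 14.6 and 14.5 CPM in the Db libraries and 17.4, 14.0 and 15.2 CPM in the Db + Ato10 libraries. Unlike most of the enzymes, Pmvk had its highest value in Db + Ato10 replicate 1, and its log2 fold change was 0.11 (SE 0.160). Mvd, which removes carbon dioxide to give isopentenyl diphosphate, had 35.8, 21.7 and 49.4 CPM in Db and 21.5, 29.6 and 29.5 CPM in Db + Ato10. Here the Db libraries spanned all but the lowest treated value, and the log2 fold change of −0.41 (SE 0.311, edgeR adjusted p = 0.492) became −0.10 without Db replicate 3.

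Idi1 converts isopentenyl diphosphate into its reactive isomer and is another strongly sterol-controlled gene. Its values were 29.9, 26.3 and 47.6 CPM in Db replicates 1, 2 and 3 and 18.0, 33.1 and 33.4 CPM in Db + Ato10 replicates 1, 2 and 3. Db replicate 3 was the highest and Db + Ato10 replicate 1 the lowest, with the remaining 4 libraries between 26.3 and 33.4 CPM. The log2 fold change was −0.30 (SE 0.323, edgeR adjusted p = 0.623), and 0.0049 without Db replicate 3. The counts of Idi1 were not whole in 5 of the 6 libraries, so some of its reads may be shared with similar sequences.

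The prenyl diphosphate synthases stand at the branch where isoprenoids leave for protein prenylation. Fdps, which makes farnesyl diphosphate, ranged from 21.3 to 35.3 CPM in the Db and from 28.4 to 39.5 CPM in the Db + Ato10 libraries, with the highest value in Db + Ato10 replicate 2 and the lowest in Db replicate 2. Its log2 fold change was 0.27 (SE 0.234, edgeR adjusted p = 0.541), and it stayed between 0.12 and 0.50 whichever library was left out. Ggps1, which extends farnesyl to geranylgeranyl diphosphate, was among the least variable members, from 30.9 to 39.0 CPM in Db and from 29.9 to 34.7 CPM in Db + Ato10 (log2 fold change −0.12, SE 0.147). The groups overlapped for both genes.

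The first steps that lead to sterols alone are the formation of squalene, its epoxidation and its closure into lanosterol. Fdft1, squalene synthase, had 27.4, 33.1 and 50.6 CPM in the Db and 41.0, 40.4 and 43.0 CPM in the Db + Ato10 libraries. The 3 treated libraries were nearly equal and lay between the highest Db value and the other 2. Its counts were not whole either, so some of its reads may be shared with similar sequences (log2 fold change 0.16, SE 0.234).

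Sqle, squalene epoxidase and a rate-limiting enzyme of the later pathway, had 42.8, 28.9 and 66.4 CPM in Db replicates 1, 2 and 3 and 38.1, 97.5 and 68.8 CPM in Db + Ato10 replicates 1, 2 and 3. Db + Ato10 replicates 2 and 3 were above every Db library, whereas Db + Ato10 replicate 1 lay among the Db values. This gave the largest positive difference among the enzymes, a log2 fold change of 0.57 (SE 0.419, edgeR adjusted p = 0.482), which did not pass the test. Leaving out the treated replicate 1 gave 0.86, the treated replicate 2 0.22 and Db replicate 3 0.93. Lss, which folds the epoxide into lanosterol, had 24.2, 22.0 and 32.9 CPM in Db and 12.7, 25.4 and 29.0 CPM in Db + Ato10. Its value in Db + Ato10 replicate 1 was below every other library, and without that library the log2 fold change of −0.24 (SE 0.330) became 0.047.

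**Figure D2:**
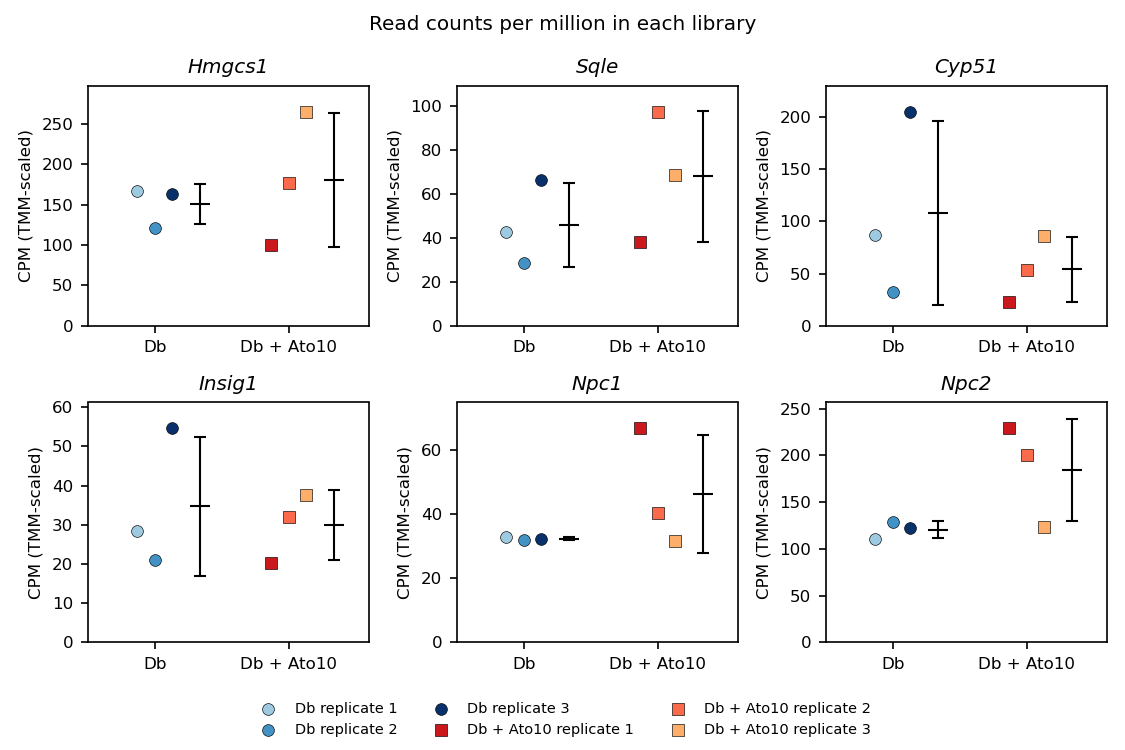
CPM after TMM scaling (vertical axes, from 0) of Hmgcs1, Sqle, Cyp51, Insig1, Npc1 and Npc2 in each of the 3 Db and 3 Db + Ato10 libraries, with the mean and SD of each group (n = 3) as a bar. Cyp51 reaches 205 CPM in Db replicate 3, and Npc1 and Npc2 are highest in Db + Ato10 replicate 1.

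Of the 9 genes that turn lanosterol into cholesterol, 6 were lower and 3 higher in the Db + Ato10 group, and none passed the test. Cyp51, the cytochrome that removes the first methyl group of lanosterol, varied more than any other member. Its values were 87.0, 32.7 and 205 CPM in Db replicates 1, 2 and 3 and 23.0, 53.1 and 85.6 CPM in Db + Ato10 replicates 1, 2 and 3. The 3 Db libraries alone differed 6.26-fold, from Db replicate 2 to Db replicate 3, and the treated ones 3.72-fold. On average Cyp51 was lower in the treated group, with a log2 fold change of −1.01 whose SE of 0.722 was the largest of the 30 (edgeR adjusted p = 0.473). Without Db replicate 3 the difference was −0.15, so most of it came from that library.

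Tm7sf2 and Lbr both encode reductases of the next intermediate, and Lbr also anchors chromatin to the nuclear envelope. Tm7sf2 had 15.02, 11.3 and 15.8 CPM in the Db and 7.05, 14.7 and 18.0 CPM in the Db + Ato10 libraries, lowest in Db + Ato10 replicate 1. Lbr had 23.0, 16.6 and 23.7 CPM in Db and 31.7, 20.3 and 22.3 CPM in Db + Ato10, highest in Db + Ato10 replicate 1. The enzymes that catalyse the same reaction therefore had opposite extremes in this library, though the groups overlapped for both (log2 fold changes −0.083, SE 0.359, and 0.23, SE 0.234).

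Removal of the next methyl groups needs Msmo1, Nsdhl and Hsd17b7. Msmo1, the oxygenase, ranged from 17.3 to 28.8 CPM in Db and from 24.6 to 30.7 CPM in Db + Ato10 (log2 fold change 0.37, SE 0.231, edgeR adjusted p = 0.422). It stayed on the positive side, between 0.23 and 0.64, with any library left out. Nsdhl, the dehydrogenase that follows, is the most abundant of the 3 by TPM and had 85.7, 52.5 and 108 CPM in Db replicates 1, 2 and 3 and 38.3, 74.3 and 87.7 CPM in Db + Ato10 replicates 1, 2 and 3. Db replicate 3 was highest, Db replicate 2 lowest of the Db group and Db + Ato10 replicate 1 lowest of all, and its log2 fold change of −0.30 (SE 0.376, edgeR adjusted p = 0.672) was −0.019 without the last. Hsd17b7, the ketone reductase, had 16.7, 19.2 and 21.2 CPM in Db and 12.98, 31.2 and 24.9 CPM in Db + Ato10. Its Db values lay close together, while the treated libraries took both ends of the range (log2 fold change 0.27, SE 0.321).

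The last steps rearrange double bonds. Ebp, the isomerase, had 87.4, 80.5 and 102 CPM in Db replicates 1, 2 and 3 and 44.3, 64.0 and 101 CPM in Db + Ato10 replicates 1, 2 and 3. Both outlying treated libraries, replicates 1 and 2, were below every Db library, and replicate 3 was within the Db range. The log2 fold change was −0.37 (SE 0.300, edgeR adjusted p = 0.519), and leaving out the treated replicate 1 gave −0.12 and the treated replicate 3 −0.73. Sc5d, the desaturase, ranged from 34.9 to 42.9 CPM in Db and from 26.02 to 38.1 CPM in Db + Ato10 (log2 fold change −0.23, SE 0.187). Dhcr7, which saturates the final bond in 1 of the branches, ranged from 15.7 to 25.8 CPM in Db and from 11.5 to 23.2 CPM in Db + Ato10 (log2 fold change −0.11, SE 0.323). For Sc5d and Dhcr7, too, the extremes were Db replicate 3 at the top and Db + Ato10 replicate 1 at the bottom.

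**Figure D3:**
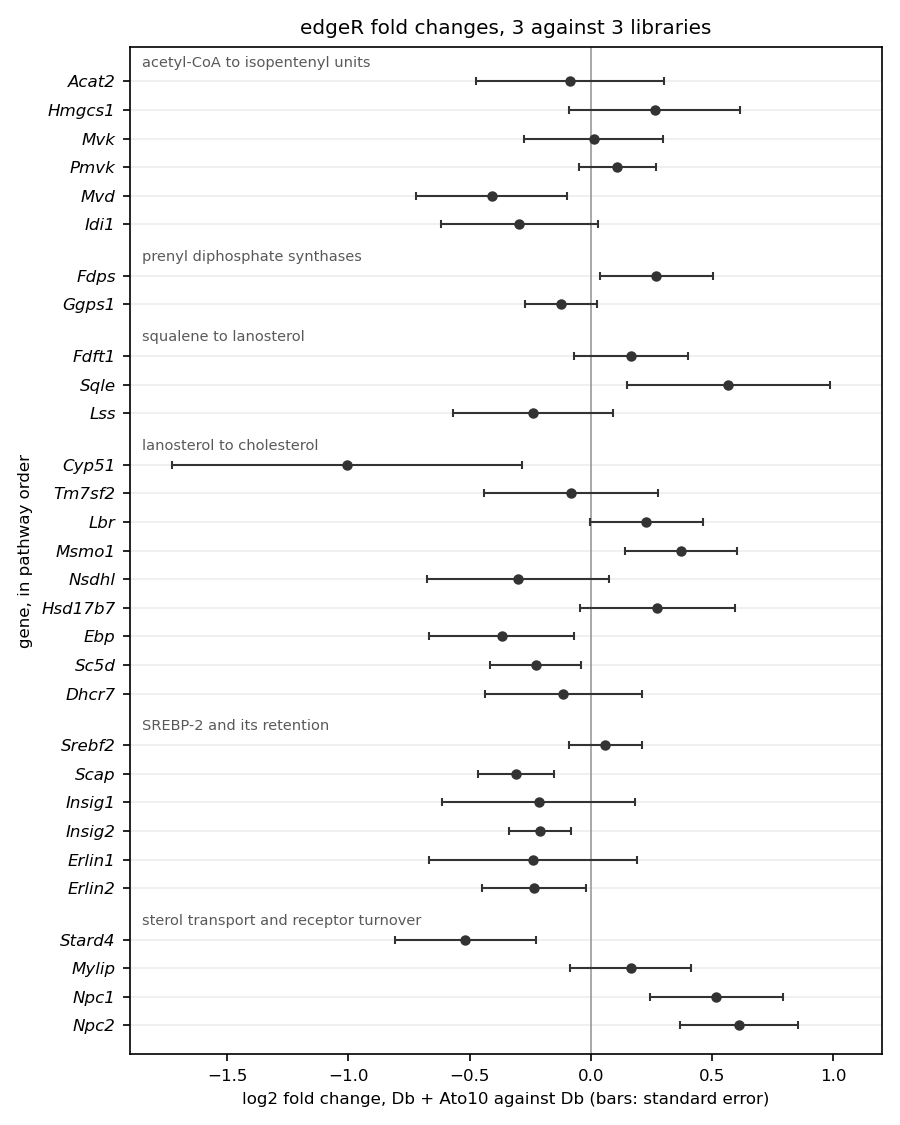
Log2 fold change of each of the 30 genes in Db + Ato10 against Db from edgeR (horizontal axis, points), with its standard error as a bar, 3 libraries in each group, and the genes in pathway order (vertical axis). Values run from −1.01 for Cyp51 to 0.61 for Npc2, and neither end passed the test after adjustment.

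The control of the pathway was examined through SREBP-2 and the proteins that retain or release it. Srebf2, the gene of SREBP-2 and itself a target of the protein, had 66.0, 74.5 and 90.0 CPM in Db replicates 1, 2 and 3 and 82.8, 75.9 and 81.5 CPM in Db + Ato10 replicates 1, 2 and 3. All treated values lay within the Db range, and the log2 fold change was 0.060 (SE 0.152, edgeR adjusted p = 0.843). RNA levels do not show how much of the SREBP-2 protein was cut and active, which was not measured here.

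Scap, the escort of SREBP-2, had 98.3, 94.4 and 123 CPM in Db replicates 1, 2 and 3 and 77.1, 83.8 and 93.6 CPM in Db + Ato10 replicates 1, 2 and 3. Every treated library was below every Db library, by a narrow gap between Db + Ato10 replicate 3 and Db replicate 2. The log2 fold change was −0.31 (SE 0.157, edgeR adjusted p = 0.353), a difference under 1.5-fold that did not pass the test. Insig2, a retention protein whose gene is not driven by SREBP-2 in the way Insig1 is, had 56.7, 52.2 and 52.6 CPM in Db and 42.6, 45.4 and 51.8 CPM in Db + Ato10. Its groups also did not overlap, with less than 1 CPM between Db + Ato10 replicate 3 and the lowest Db library (log2 fold change −0.21, SE 0.128, edgeR adjusted p = 0.416). Both differences kept their sign with any library left out, from −0.38 to −0.18 for Scap and from −0.28 to −0.15 for Insig2, and with 2 of 30 genes their number was below the 11.3% of all tested genes that separated in this direction.

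Insig1, the retention protein that SREBP-2 induces as feedback, had 28.5, 20.9 and 54.6 CPM in Db replicates 1, 2 and 3 and 20.2, 31.9 and 37.6 CPM in Db + Ato10 replicates 1, 2 and 3. Db replicate 3 was well above every other library, and the other 5 lay between 20.2 and 37.6 CPM. The log2 fold change of −0.22 (SE 0.399, edgeR adjusted p = 0.780) was 0.27 without Db replicate 3, so its sign rested on that library. It was 0.0048 without Db + Ato10 replicate 1.

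Erlin1 and Erlin2 encode partner proteins of the endoplasmic reticulum that bind cholesterol and take part in the sterol-driven breakdown of membrane proteins. Erlin1 had 74.5, 63.1 and 97.9 CPM in the Db and 28.4, 93.9 and 77.2 CPM in the Db + Ato10 libraries. Db + Ato10 replicate 1 was far below every other library, and the remaining treated libraries lay within the Db range. Without that library its log2 fold change of −0.24 (SE 0.429) became 0.13. Erlin2, the more abundant of the pair by TPM, had 150.4, 128 and 146 CPM in Db replicates 1, 2 and 3 and 86.1, 133 and 143 CPM in Db + Ato10 replicates 1, 2 and 3. Its only low value was again Db + Ato10 replicate 1, and the log2 fold change of −0.23 (SE 0.215, edgeR adjusted p = 0.563) was −0.037 without it.

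Outside synthesis and its control, the 4 genes of sterol transport and receptor turnover did not share a profile. Stard4, a soluble carrier of sterol between membranes and a SREBP-2 target, had 69.1, 56.1 and 107 CPM in the Db and 41.2, 53.8 and 67.1 CPM in the Db + Ato10 libraries. It was highest in Db replicate 3 and lowest in Db + Ato10 replicate 1 (log2 fold change −0.52, SE 0.289, edgeR adjusted p = 0.383; −0.21 without Db replicate 3). Mylip, the ubiquitin ligase that marks lipoprotein receptors for breakdown and is induced by sterol through a nuclear receptor (LXR) and not through SREBP-2, had 55.5, 54.8 and 52.2 CPM in Db and 42.0, 83.6 and 56.5 CPM in Db + Ato10. Here the Db libraries were almost equal, and the treated ones held both the lowest and the highest value (log2 fold change 0.16, SE 0.250).

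Npc1 and Npc2 hand cholesterol out of the lysosome, Npc2 in its lumen and Npc1 in its membrane. Npc1 had 32.8, 31.8 and 32.4 CPM in Db replicates 1, 2 and 3 and 66.8, 40.3 and 31.7 CPM in Db + Ato10 replicates 1, 2 and 3. Npc2 had 111, 129 and 122 CPM in Db replicates 1, 2 and 3 and 229, 200.2 and 123 CPM in Db + Ato10 replicates 1, 2 and 3. The pair shared a profile in which Db + Ato10 replicates 1 and 2 were above every Db library and Db + Ato10 replicate 3 was at the Db level. The log2 fold change was 0.52 for Npc1 (SE 0.275, edgeR adjusted p = 0.367) and 0.61 for Npc2 (SE 0.243, edgeR adjusted p = 0.283), so neither passed the test. Npc2 was the only member at an unadjusted p under 0.05. Without Db + Ato10 replicate 3, Npc2 met both DEG criteria (log2 fold change 0.84, edgeR adjusted p = 0.0353). So did 1236 of all 13679 tested genes, a larger share than 1 of 30. Leaving out any other library gave none of the 30.

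Markers of cell types also differed between the libraries, though not all in the same ones. In bulk kidney, fewer cells of a type and less RNA per cell cannot be told apart. Of 11 proximal tubule markers, all 11 were lower on average, none at an unadjusted p under 0.05 with edgeR and 0 of them DEGs with edgeR or DESeq2. Their TPM summed to 16899, 9209.6 and 11575 in Db replicates 1, 2 and 3 and to 4008, 7184 and 11246 in Db + Ato10 replicates 1, 2 and 3. Kap was the most abundant gene by the mean over the 6 libraries. It took 8826, 2294 and 3069 TPM of the Db sums and 2848, 2213 and 3042 TPM of the Db + Ato10 sums. That was most of the sum in Db replicate 1 and in Db + Ato10 replicate 1. The median log2 deviation of the 11 markers from the Db mean was −2.68, −0.83 and 0.12 in Db + Ato10 replicates 1, 2 and 3, lowest in the library where the 30 genes were also lowest. In the 6 genes of SREBP-2 and its retention the corresponding medians were −0.55, −0.049 and 0.0072, in the 9 enzymes after lanosterol −0.68, −0.042 and 0.15, and in the first 6 enzymes −0.61, 0.074 and 0.16. The prenyl diphosphate synthases (−0.080, 0.25 and 0.080) and the 3 genes from squalene to lanosterol (−0.19, 0.17 and 0.26) were less low in Db + Ato10 replicate 1. For the 4 transport genes they were 0.28, 0.47 and 0.0013.

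Leukocyte markers had the opposite profile. All 6 tested of 8 were higher in the Db + Ato10 group, each at an unadjusted p under 0.05 with edgeR, with 0 DEGs by edgeR and 6 by DESeq2. All 8 listed markers, tested or not, summed to 72.7, 199 and 129 TPM in Db replicates 1, 2 and 3. In Db + Ato10 replicates 1, 2 and 3 the sums were 5599, 1415 and 193 TPM. Lyz2, a macrophage and neutrophil gene, was the most abundant with 38.9, 107 and 76.8 and 4395, 993 and 114 TPM. Npc1 and Npc2 were highest in the same 2 libraries. The 6 injured tubule markers were all higher as well, at 3862, 4588 and 2451 TPM in Db and 21568, 40400.2 and 12138 TPM in Db + Ato10. Spp1 led them (3849, 4451 and 2428 and 10484, 37901 and 11339 TPM) except in Db + Ato10 replicate 1, where Lcn2 had 10827 TPM. With edgeR 6 of 6 had an unadjusted p under 0.05 and 0 were DEGs, against 6 by DESeq2. Within the Db group, Db replicate 2 was the highest library for 6 of 6 leukocyte and 6 of 6 injured tubule markers, and it was the lowest for 21 of the 30 sterol genes. The order did not hold throughout, since Db + Ato10 replicate 2 had the highest summed TPM of the injured tubule markers while its sterol genes were on the whole near the Db level (median deviation −0.0044). That sum was mostly Spp1 (37901 of 40400.2 TPM). Counted by marker, Db + Ato10 replicates 1 and 2 were each the highest library for 3 of the 6. The part of these cell types in the values of the 30 genes was not tested.

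The other marker lists gave the following, by edgeR with 0 DEGs in each. Sums are given for the libraries of Db and Db + Ato10 in the order of their numbers. The gene named for each list is the most abundant by the mean over the 6 libraries. Fibroblast and myofibroblast markers were higher in 6 of 6 (55.0, 55.5 and 41.1 and 419, 216 and 68.7 TPM, Acta2). In Db + Ato10 alone, Col1a2, Col1a1 and Col3a1 had higher means (60.7, 51.4 and 50.6 TPM) than Acta2 (50.5 TPM). Squamous and transitional epithelium markers were higher in 4 of 4 tested. All 7 listed, tested or not, summed to 2.80, 0.700 and 2.44 and 145, 87.2 and 24.1 TPM (Krt5). Proliferation markers were higher in 5 of 5 (Birc5, the most abundant, at 1.82, 3.09 and 1.73 and 12.3, 11.0 and 2.07 TPM). At an unadjusted p under 0.05 these lists had 5, 4 and 4 genes, and DESeq2 called 4, 3 and 3. Tubule markers beyond the proximal segment were lower in 6 of 6 for the thick ascending limb (4763, 5398 and 4981 and 2687, 1407 and 3583 TPM, Umod), in 5 of 5 for the distal convoluted tubule (2248, 2429 and 1647 and 1073, 554 and 997 TPM, Calb1) and in 7 of 7 for the collecting duct (801, 595 and 1033 and 603, 378 and 644 TPM, Aqp2). Of these, 4, 4 and 5 had an unadjusted p under 0.05, and DESeq2 called 4, 2 and 2. Podocyte markers were lower in 3 of 5 (226, 145 and 141 and 208, 76.7 and 137 TPM, Podxl) and endothelial markers in 2 of 5 (204, 184 and 199.6 and 266, 119 and 195 TPM, Emcn). At an unadjusted p under 0.05 these were 0 podocyte genes and 1 lower endothelial gene, Kdr, whose groups did not overlap, and DESeq2 called 0 in both lists. Every nephron list was present in every library. The lowest library was Db + Ato10 replicate 2 for 5 of 6 thick ascending limb, 5 of 5 distal convoluted tubule and 5 of 7 collecting duct markers. It was also lowest for 3 of 5 podocyte and 5 of 5 endothelial markers, beside 16.0% of all tested genes. Db + Ato10 replicate 1, where the 30 genes were lowest, was highest for 3 of 5 podocyte and 4 of 5 endothelial markers, beside 30.8% of all tested genes. Adrenal and fat tissue left little RNA. Of the 6 adrenal cortex markers found 3 were tested, and all 6 summed to 68.4, 69.6 and 71.7 and 35.4, 51.1 and 71.3 TPM. These sums were mostly Fdx1, which kidney also expresses, and Cyp11a1 was at 0.200, 0.110 and 0.150 and 0.180, 0.0900 and 0.150 TPM. Cyp21a1 had 0 counts in each Db library and 10, 2 and 2 counts in Db + Ato10 replicates 1, 2 and 3. Of 4 adipocyte markers found 1, Cidec, was tested and higher, and Adipoq and Plin1 had no more than 1 count in any library. Hepatocyte markers, which the kidney expresses in part, were higher in 3 of 5 and lower in 2 (385, 308 and 451 and 166, 533 and 683 TPM, Serpina1a). The unadjusted p was under 0.05 for 1 higher hepatocyte gene, Fgb, which DESeq2 called, for Cidec, which it did not call, and for 0 adrenal genes. No marker found in the table was at 0 in all 6 libraries, although Krt13 had a single count in 1 of them.

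The wider set of sterol genes was read in the same way. Of 11 genes that cut, sense or degrade proteins of the SREBP system, 8 were lower and 3 higher, 0 at an unadjusted p under 0.05 with edgeR, and 1 was lower without overlap of the groups, which is no larger a share than the 11.3% of all tested genes. For this list and those that follow, the shares over all tested genes were 50.6% lower, 16.9% at an unadjusted p under 0.05 and 23.2% without overlap in either direction.

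Of 6 genes that feed electrons to the sterol enzymes or hold them together, 4 were lower and 2 higher, 1 had an unadjusted p under 0.05, and 2 had groups that did not overlap, 1 in each direction. The gene that met both was Cyb5r3, the reductase of cytochrome b5, with 123, 152 and 183 CPM in the Db and 224, 265 and 211 CPM in the Db + Ato10 libraries. All treated values were above all Db values, by a log2 fold change of 0.61 (SE 0.194, edgeR adjusted p = 0.239), so the gene did not pass the test.

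Of 10 genes of sterol transfer and storage, 7 were lower and 3 higher, with 2 lower and 1 higher at an unadjusted p under 0.05, and 2 lower and 2 higher without overlap. Against 16.9% and 23.2% of all tested genes these were 3 and 4 of 10. Soat1, the enzyme that esterifies cholesterol for storage in macrophages and many other cells, had 15.6, 13.4 and 13.5 CPM in the Db and 48.7, 29.4 and 17.0 CPM in the Db + Ato10 libraries (log2 fold change 1.16, SE 0.369, edgeR adjusted p = 0.239). Its order among the treated libraries was that of the leukocyte markers and of Npc1. Osbpl2, an oxysterol-binding transfer protein, had 66.0, 68.8 and 72.9 and 52.2, 50.6 and 57.4 CPM (log2 fold change −0.37, SE 0.119, edgeR adjusted p = 0.239). Lipa, the lysosomal lipase that frees cholesterol from its esters, had 421, 315 and 383 and 154, 229 and 304 CPM and was thus lowest where Npc1 and Npc2, which act right after it, were highest (log2 fold change −0.70, SE 0.277, edgeR adjusted p = 0.281). These 3 were all of this list that met both conditions, and none passed the test after adjustment.

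Transcripts of the 30 genes were counted separately by the authors. Of 80 listed, 79 had reads and 60 were tested, at least 1 for each gene. With edgeR 0 were DEGs, 2 higher and 3 lower ones had an unadjusted p under 0.05, and 8.19% of all 30175 tested transcripts passed that level. DESeq2 called 2 of the 60, models of Hmgcs1 and Hsd17b7, and 889 of all 30175 tested transcripts. The share called among the 60 was thus near that of all tested transcripts. The smallest edgeR adjusted p of the 60 was 0.359. Splitting reads among transcripts of 1 gene is an estimate, so these values are less certain than those of genes.

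For Hmgcs1 the reads went to 3 transcripts, of which the model XM_006517578.1 had 43.4, 40.3 and 52.3 CPM in Db replicates 1, 2 and 3 and 82.2, 63.1 and 79.2 CPM in Db + Ato10 replicates 1, 2 and 3. All treated libraries were above all Db libraries (log2 fold change 0.72, SE 0.179, edgeR adjusted p = 0.452, DESeq2 adjusted p = 0.0202). The curated transcript NM_001291439.1 of the same gene had 88.7, 53.4 and 81.5 CPM in Db and 13.7, 100.03 and 145 CPM in Db + Ato10, with Db + Ato10 replicate 1 far below the rest. The third, NM_145942.5, had 33.8, 27.3 and 29.3 CPM in Db and 7.82, 17.1 and 40.9 CPM in Db + Ato10, also lowest in Db + Ato10 replicate 1. In that library the model and the 2 curated transcripts thus lay at opposite ends, which the sum over the gene does not show.

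For Hsd17b7 the model XM_006496667.2, a minor transcript with 6.47% of the gene's reads, had 2.30, 3.19 and 2.74 CPM in the Db libraries and was at 0 in the 3 Db + Ato10 libraries. Against a floor of 3 counts per library, at the library sizes of the gene counts, this was at least 12.9-fold lower (edgeR adjusted p = 0.359, DESeq2 adjusted p = 0.0000360). That limit covers counting error only, and not error in splitting reads with the gene's main transcript, NM_010476.3. The main transcript had 14.3, 15.8 and 18.4 CPM in Db and 13.4, 31.8 and 24.9 CPM in Db + Ato10. Scap had most of its reads on NM_001001144.3, at 80.2, 59.4 and 72.6 CPM in Db and 30.5, 31.7 and 56.4 CPM in Db + Ato10, and on NM_001103162.2, at 10.4, 27.8 and 49.6 and 49.8, 44.6 and 37.2 CPM. The first was below every Db library in all treated libraries (log2 fold change −0.84, SE 0.291, edgeR adjusted p = 0.551), and the second overlapped. The remaining transcripts at an unadjusted p under 0.05 were the single one of Npc2 and the model XM_006510253.2 of Sc5d, with 17.2, 15.9 and 18.8 CPM in Db and 10.1, 10.2 and 12.6 CPM in Db + Ato10.

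Promoters were searched because SREBP-2 acts at a sterol element together with the factors NF-Y and Sp1. The RefSeq promoter table (GRCm38.p6, from 250 bases before to 50 bases after each gene start) held 32 promoters of 24 of the 30 genes. It had none of Fdps, Fdft1, Sqle, Stard4, Npc1 and Erlin2. The sterol element core TCACNCCAC was found on either strand in 1 of the 32 (3.13%), beside 1.24% of all 32851 promoters of the table. The NF-Y box CCAAT was in 24 of 32 (75.0%) beside 37.4% of all promoters, and the Sp1 box GGGCGG in 27 of 32 (84.4%) beside 35.7%, with overlaps between motifs allowed. Counted by gene, 22 of 24 had a CCAAT and 22 of 24 a GGGCGG in at least 1 promoter, beside 41.1% and 38.2% of all 27025 genes of the table. These are matches of letters in this window and not shown to be bound. A single match to the sterol core cannot set the 32 promoters apart from all promoters. Sterol elements with other letters or outside the window were not searched.

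The promoter with the sterol core was that of Hmgcs1, on the forward strand, and its match begins 137 bases before the gene start. The 300-base window also held 4 matches to CCAAT and 3 to GGGCGG. It is shown because it was the only match among the 32, with the sterol core in capitals, as the 250 bases upstream of the gene's first exon at chr13:119690101-119690350 (RefSeq, GRCm38.p6, forward strand).
Hmgcs1: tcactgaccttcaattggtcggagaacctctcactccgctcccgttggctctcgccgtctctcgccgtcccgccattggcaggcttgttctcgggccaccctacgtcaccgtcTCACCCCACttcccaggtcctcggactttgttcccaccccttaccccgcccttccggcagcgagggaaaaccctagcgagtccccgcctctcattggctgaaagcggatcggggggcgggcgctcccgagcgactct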

How the data were processed

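Kidney RNA of 3 Db and 3 Db + Ato10 samples was compared, grouped by the treatment label. The authors deposited expected counts for genes and transcripts: estimated counts without any scaling, as deposited. Of the gene values, 91.3% were whole, and 3 members had others (tolerance 0.001). They also deposited FPKM for genes, which the authors had divided by length and sequencing depth. The TPM values for genes were divided by length and brought to a common total by the authors, as deposited. The submitters' processing notes name HISAT, Bowtie2 2.2.5 and the build mm9; the counter and strand setting are not given in the sources used here, so overlapping genes on opposite strands may share reads. Deposited group averages were not used.

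Counts were rounded to whole numbers and tested with edgeR 4.0.16 in R 4.3.3 (TMM, quasi-likelihood F test, defaults, Benjamini-Hochberg adjustment over all 13679 genes, or 30175 transcripts, that reached 10 counts in 3 or more libraries). SE is the size of the log2 fold change over the root of F. DEGs needed an adjusted p under 0.05 together with a fold change above 1.5, the study's criteria. Deviations are of log2 CPM with a prior count of 2. The fit was tested on simulated counts. Alternatives were DESeq2 1.42.0, limma 3.58.1 (voom, or on log2(FPKM + 1), log2(TPM + 1) and log2(TPM + 0.1)), upper-quartile or library-size scaling, at least 1 count in any library, at least 10 counts in every library, thresholds without a fold change, a replicate block and each library left out. No 2 libraries held identical values (0 pairs).

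Every member was named, with all libraries' values for those at an unadjusted p under 0.05, without overlap, the 6 most abundant by TPM, and Srebf2, Insig1, Hmgcs1, Sqle and Idi1; other full values were chosen after seeing them, as were Acat3 and the transcripts named. Genes of other sterol lists were named at an unadjusted p under 0.05 without overlap, at most 5 by p. Symbols were matched to the table, 1 (Spring1, there as 2410131K14Rik) by NCBI Gene number through RefSeq; Cyp11b1, Lep and Xist had no match and were not used here. Promoters and their coordinates belong to the RefSeq table (GRCm38.p6), not to the files' build. The members and lists were chosen with earlier results of these data known. Figures used matplotlib 3.10.9 in Python 3.11.15.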

Additional observations from a re-analysis of the deposited data

How the results depend on the processing

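All members stayed short of the DEG criteria under every alternative except 1: without Db + Ato10 replicate 3, Npc2 was called, so the members' count ranged from 0 to 1 with a library left out. Over all genes the count of 0 became 884 with DESeq2, 1 with limma on log2(TPM + 0.1), and 0 to 1236 with a library left out. For member transcripts it became 2 with DESeq2. The members' median log2 fold change ran from −0.22 to −0.080 under other scalings, units and filters, where the median of all genes moved by under 0.1, and from −0.21 to 0.060 with a library left out. The cause of these changes was not tested; a fit with 5 libraries also has fewer samples.

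The replicate numbers show no sign of pairing: the correlations of same-numbered deviations were −0.15, 0.061 and 0.21. With the replicate block 0 genes, 0 members and 0 member transcripts were called, and the members' median was −0.14.

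The sign of 17 of 30 members never changed. Mvk gave −0.0094 at 1 count in any library, −0.062 and −0.067 on the TPM scales, and Srebf2 gave −0.024 and −0.024 there. With a library left out, log2 fold changes ran from −0.32 to 0.27 for Acat2, from −0.12 to 0.56 for Hmgcs1, from −0.11 to 0.28 for Mvk, from −0.46 to 0.0049 for Idi1, from −0.0020 to 0.46 for Fdft1, from −0.46 to 0.047 for Lss, from −0.37 to 0.22 for Tm7sf2, from −0.0018 to 0.57 for Hsd17b7, from −0.35 to 0.17 for Dhcr7, from −0.028 to 0.19 for Srebf2, from −0.48 to 0.27 for Insig1, from −0.13 to 0.38 for Mylip and from −0.57 to 0.13 for Erlin1. The lowest member count was 107, and 3 libraries a group leave wide spread.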
